A study of Mus musculus with 8 samples.

Results

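The transcripts examined here are those of 10 genes that handle calcium at the sarcoplasmic reticulum of the heart muscle cell: Atp2a2, Pln, Sln, Ryr2, Casq2, Trdn, Hrc, Jph2, Slc8a1 and Camk2d. They were taken by name from the 39056 genes of the deposited counts, and all 10 were among the 14796 genes that passed the filter on low counts. Hearts of 4 HVCN1 null mice (HVCN1-/-, a knockout of the voltage-gated proton channel gene) were compared with hearts of 4 wild-type (WT) mice of the C57BL/6 background. All mice were male, 3 months old and untreated as far as the labels and methods state, and each heart gave 1 poly-A RNA library. Replicate numbers run from 1 to 4 for HVCN1 null hearts and from 5 to 8 for WT hearts. The samples are labelled as heart, without naming the chambers, and the methods do not say whether the groups were littermates.

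Each heartbeat depends on calcium that leaves and re-enters the sarcoplasmic reticulum, the internal calcium store of muscle. The ryanodine receptor releases it beside the T-tubule, where junctophilin holds the membranes together, and calsequestrin, triadin and the histidine-rich calcium binding protein buffer calcium inside the store and tie that buffer to the release channel. The pump SERCA2 returns calcium to the store under the restraint of phospholamban and, in atria, sarcolipin, while the sodium-calcium exchanger removes the rest from the cell and CaMKII tunes release and uptake by phosphorylation.

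No gene of the 10 was a differentially expressed gene (DEG) between HVCN1 null and WT hearts, with DEGs called at a Benjamini-Hochberg adjusted p under 0.05 over all tested genes in edgeR's quasi-likelihood test. In that test 1.14% of all genes were DEGs (169 genes, 110 of them higher with HVCN1 deleted and 59 lower). At an unadjusted p under 0.05, there was 1 of the 10 (Hrc, lower in HVCN1 null hearts), against 11.0% of all genes. In all, 9 of the 10 had a negative and 1 a positive log2 fold change, HVCN1 null over WT, with a median of -0.05 against -0.01 for all tested genes, of which 52.7% were negative. The split was 6 negative to 4 positive with RLE scaling, 5 to 5 with unscaled libraries and 4 to 6 with an atrial score as covariate, where the median of the 10 was 0.02. In CPM (counts scaled to a common library size), the HVCN1 null and WT values of each of the 10 genes overlapped, whereas 7.14% of all tested genes had groups that did not overlap.

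The promoters of Pln and Hrc are shown because the ratio of Pln to Atp2a2 and the level of Hrc had the lowest p-values among the ratios and among the 10 genes, though neither passed its correction for multiple tests and Pln itself had a log2 fold change of -0.02. They come from RefSeq (GRCm38.p6), where 7 of the 10 genes had an entry, and run from 250 bases before to 50 bases after the start of the gene. Capitals mark matches on either strand to the TATA box (TATAAA), the CCAAT box, the site of GATA factors (GATAAG) and the GC box (GGGCGG).
Pln (chr10:53337436-53337735, plus strand): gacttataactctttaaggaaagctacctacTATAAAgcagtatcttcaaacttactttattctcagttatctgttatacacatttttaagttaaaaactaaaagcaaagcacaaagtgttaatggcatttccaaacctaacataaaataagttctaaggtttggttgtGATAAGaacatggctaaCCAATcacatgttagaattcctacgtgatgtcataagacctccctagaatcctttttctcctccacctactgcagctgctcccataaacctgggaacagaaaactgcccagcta
Hrc (chr7:45335019-45335318, plus strand): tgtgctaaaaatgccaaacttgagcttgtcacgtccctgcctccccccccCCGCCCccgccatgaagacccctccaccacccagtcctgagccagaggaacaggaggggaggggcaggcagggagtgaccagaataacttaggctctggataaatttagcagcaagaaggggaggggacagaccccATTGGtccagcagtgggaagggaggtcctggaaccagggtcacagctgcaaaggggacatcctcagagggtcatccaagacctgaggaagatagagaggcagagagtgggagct

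The Pln window held TATAAA at -219 to -214, GATAAG at -81 to -76 and CCAAT at -64 to -60, counted from the start site. The Hrc window held CCAAT at the same place, -64 to -60, on the opposite strand, and GGGCGG at -200 to -195 on the opposite strand. Of 32851 promoter windows of this length, 13.6% held the TATA box as spelled here, 37.4% the CCAAT box, 7.44% the GATA site and 35.7% the GC box on either strand. CATTCC, the core of the site read by TEAD factors and present in 14.7% of windows, was not in either window. With 36.0% G and C, the Pln window was among the poorest, since only 4.98% of all windows had as little, while that of Hrc had 58.7% against a median of 52.7%. These matches describe the letters only, and the motifs were chosen with the promoters in view.

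Total counts ran from 25851255 to 38874640 per heart. Hvcn1, the deleted gene, was counted 16 times in all HVCN1 null libraries together and 318 times in the WT libraries, so every library matched its label. Cardiomyocyte genes were abundant in all hearts (57613 to 73108 summed CPM over 9 markers, with overlapping groups). Of these 9, 5 had a negative and 4 a positive log2 fold change, with a median of -0.006 and the highest at 0.27 (Mybpc3). The 2 with an unadjusted p under 0.05, against 11.0% of all genes, were both lower. Actc1 (cardiac actin) was at 6113 to 6749 CPM in HVCN1 null and 7571 to 10582 CPM in WT hearts (log2 fold change -0.51, edgeR unadjusted p = 0.00211, adjusted p = 0.105). Tpm1 (tropomyosin) had a log2 fold change of -0.43 (edgeR adjusted p = 0.282). The 7 atrial genes summed to between 193 and 8580 CPM and varied widely within both groups. Sums of ventricular, fibroblast, endothelial, macrophage and erythroid markers overlapped between the groups as well, and none of these genes was a DEG. However, all 7 macrophage and all 5 erythroid markers had negative log2 fold changes (medians -0.31 and -0.96), against 52.7% of all tested genes. Of these, 2 macrophage and 1 erythroid marker had an unadjusted p under 0.05 in edgeR, against 11.0% of all genes. No ventricular, fibroblast or endothelial marker did. In a whole heart, fewer cells of a type and less RNA per cell cannot be told apart. The 10 genes together took between 1.72% and 1.95% of a library in the HVCN1 null group and between 1.72% and 2.10% in the WT group, of which Atp2a2 alone took 0.95% to 1.11% and 0.987% to 1.27%.

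**Figure D1:**
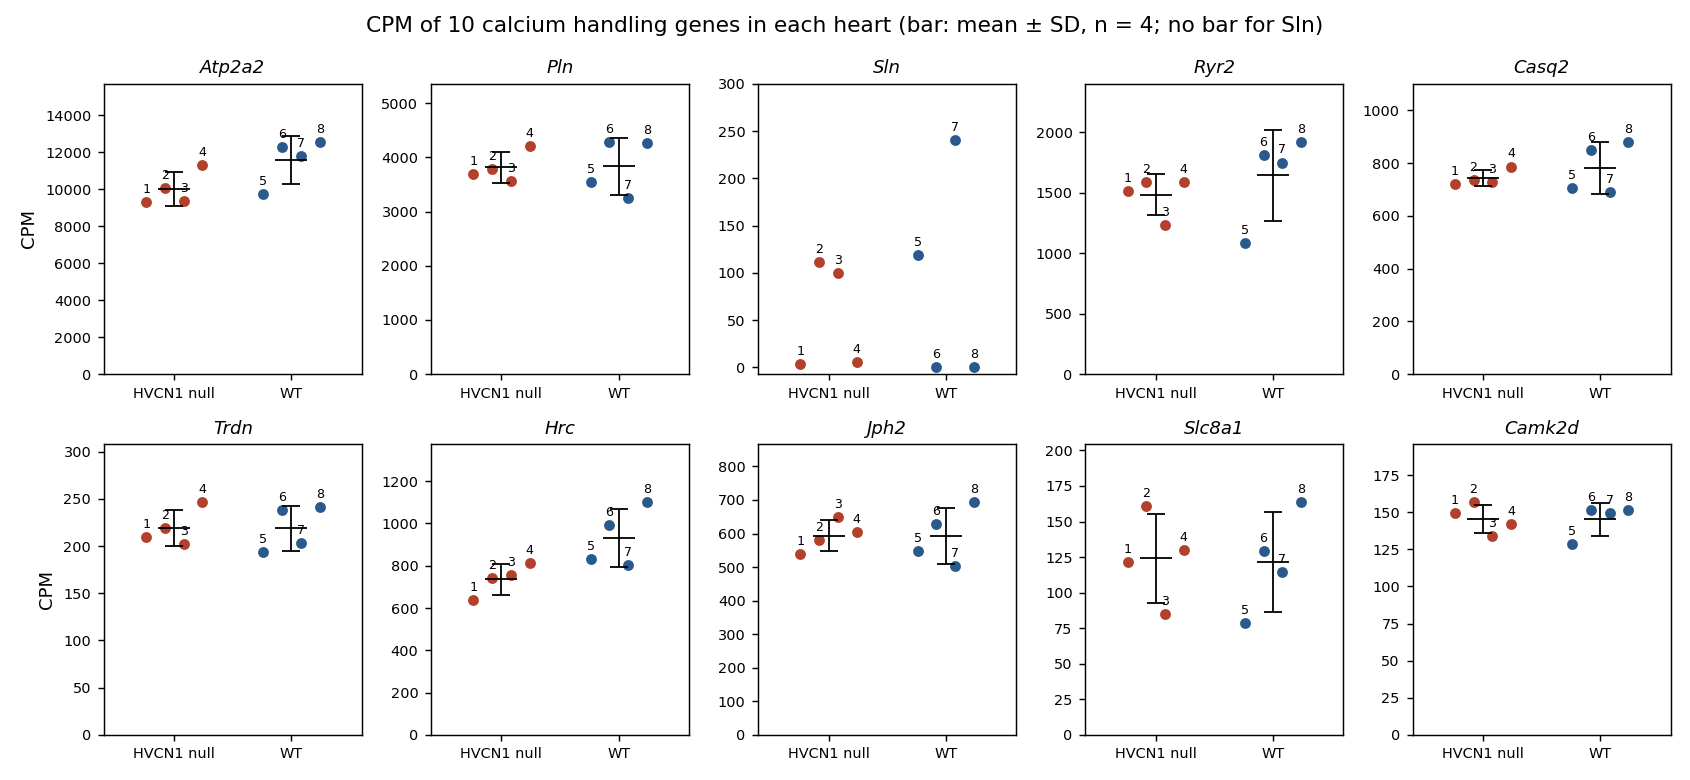
CPM (vertical axes, starting at 0 except for a small margin in the Sln panel) of the 10 genes in each HVCN1 null heart (red, 1 to 4) and WT heart (blue, 5 to 8), with the mean ± SD as a bar in every panel but that of Sln. The groups overlap in each panel, Hrc by a single pair of hearts, and Sln is near 0 in WT hearts 6 and 8.

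Atp2a2 (ENSMUSG00000029467, chromosome 5, 122453513 to 122502225, minus strand, GRCm38), which encodes the SERCA2 pump, was the most abundant of the 10 genes. HVCN1 null hearts 1 to 4 gave 9325, 10049, 9383 and 11310 CPM, and WT hearts 5 to 8 gave 9724, 12313, 11779 and 12577 CPM. WT heart 5 lay among the HVCN1 null values, and the other 3 WT hearts lay above all of them. The means were 10017 ± 923 and 11598 ± 1293 (SD, n = 4 and 4), 13.6% lower in HVCN1 null hearts (two-sided exact permutation test, p = 0.0857). The log2 fold change was -0.22 (SE 0.13, edgeR quasi-likelihood adjusted p = 0.607), and its 95% interval, -0.50 to 0.06, includes 0. With 1 heart left out it ran from -0.29 without WT heart 5 (unadjusted p = 0.0259, adjusted p = 0.359 in the same edgeR test) to -0.17 without WT heart 8 (adjusted p = 0.81), and it was -0.16 when scaled to cardiomyocyte markers.

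Atp2a2 was the only gene of the 10 on the chromosome of Hvcn1, 211 kb beyond its end. Of the 20 genes tested within 0.5 Mb of Hvcn1, Ift81, which encodes a protein of intraflagellar transport, was the only DEG, against 1.14% of all genes. Ift81 stood at 63.3 to 93.5 CPM in HVCN1 null and 30.3 to 41.5 CPM in WT hearts (log2 fold change 1.06, edgeR adjusted p = 0.00553). Besides Atp2a2, 8 of the other 19 genes had a negative and 11 a positive log2 fold change, with a median of 0.01. Cux2, a homeobox gene on the other side of Hvcn1, had an unadjusted p under 0.05 (-0.36, edgeR adjusted p = 0.253). With Ift81 it made 2 of the 20 genes under that limit, against 11.0% of all genes.

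Pln (ENSMUSG00000038583, chromosome 10, 53337667 to 53345987, plus strand), the gene of phospholamban, which slows the pump until it is phosphorylated, had almost the same mean in both groups. HVCN1 null hearts gave 3698, 3784, 3559 and 4209 CPM, in the same order, against 3548, 4288, 3244 and 4270 CPM in WT. The means were 3812 ± 280 and 3837 ± 525 (SD, n = 4 and 4), with a log2 fold change of -0.02 (SE 0.13, 95% interval -0.29 to 0.26, edgeR adjusted p = 0.990). The lowest value, 3244, was that of WT heart 7, the heart richest in atrial genes. The sign of this small difference turned with unscaled libraries and with scaling to cardiomyocyte markers.

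The ratio of Pln to Atp2a2 counts, which needs no library scaling, was higher in every HVCN1 null heart than in any WT heart. HVCN1 null hearts had ratios of 0.397, 0.377, 0.379 and 0.372, and WT hearts had 0.365, 0.348, 0.275 and 0.340. The closest hearts were HVCN1 null heart 4 and WT heart 5, and WT heart 7 stood furthest away. The means were 0.381 ± 0.0107 and 0.332 ± 0.0392 (SD, n = 4 and 4), 14.8% higher in HVCN1 null hearts, with a log2 difference of 0.21. The two-sided exact permutation test gave p = 0.0286, the smallest that 70 assignments allow, and 0.286 after adjustment over the 10 ratios tested. As a background, 7.97% of the other tested genes (1179 of 14795) had a ratio to Atp2a2 that was higher in every HVCN1 null heart. Such a split was thus not particular to Pln. The opposite split, lower in every HVCN1 null heart, was found for 111 genes. Without WT heart 7 the log2 difference was 0.12 (exact p = 0.0286), and without any 1 of the HVCN1 null hearts it ran from 0.19 to 0.22 (exact p = 0.0571 each). The atrial genes summed to 394, 4757, 3762 and 427 CPM in the HVCN1 null group and to 3352, 211, 8580 and 193 CPM in the WT group, and their part in this ratio was not tested.

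**Figure D2:**
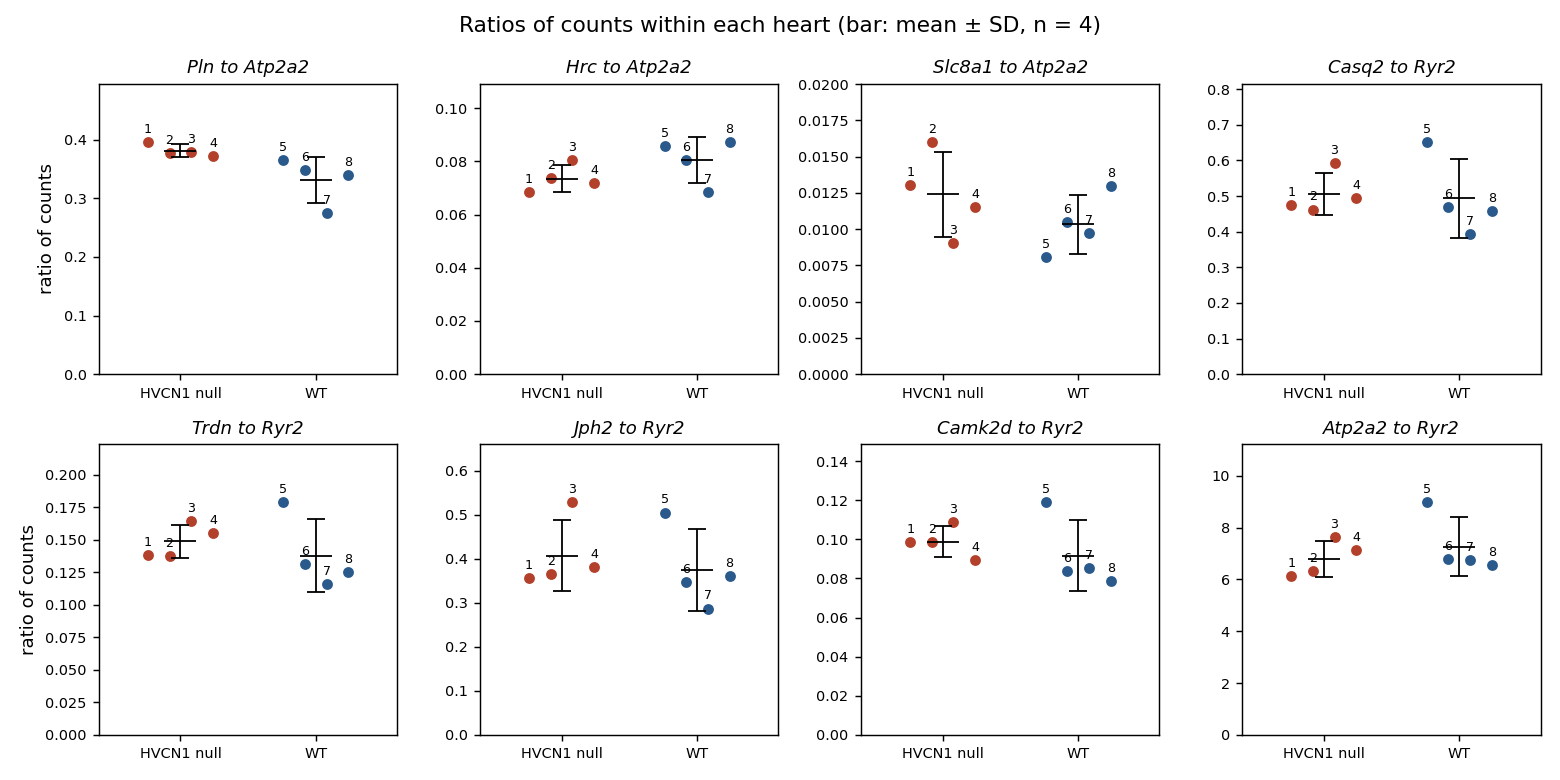
Ratios of counts within each heart (vertical axes, from 0) for 8 of the 10 ratios, with HVCN1 null hearts in red, WT hearts in blue and the mean ± SD as a bar. Pln to Atp2a2 is the ratio whose groups do not overlap (0.372 to 0.397 against 0.275 to 0.365), and WT heart 5 is highest in the 5 panels with Ryr2 as denominator except Jph2 to Ryr2, where HVCN1 null heart 3 is.

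Sln (ENSMUSG00000042045, chromosome 9, 53850164 to 53854560, plus strand), the gene of sarcolipin, a small pump inhibitor found mainly in atria and skeletal muscle, varied far more between hearts than between groups. HVCN1 null hearts had 3.46, 112, 99.3 and 5.30 CPM, and WT hearts had 119, 0.0310, 240 and 0 CPM. WT heart 6 had 1 count and WT heart 8 had 0 counts, which allows up to 0.10 CPM by counting error alone (3 counts). The log2 fold change was -0.72 with an SE of 1.62 (95% interval -4.31 to 2.87, edgeR adjusted p = 0.943), an interval that reaches far to both sides of 0. Under limma's voom test it was 2.74, and with an atrial score as covariate 0.18, so its direction was not settled.

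Read against the atrial genes, the hearts fell in almost the same order for Sln as for the summed CPM of Myl7, Myl4, Nppa, Bmp10, Dkk3, Stard10 and Kcnj3. WT heart 7 was highest in both (240 and 8580 CPM). HVCN1 null heart 2 (112 and 4757), HVCN1 null heart 3 (99.3 and 3762) and WT heart 5 (119 and 3352) followed, and only in these 3 did the orders differ. HVCN1 null heart 4 (5.30 and 427) and HVCN1 null heart 1 (3.46 and 394) came next, and WT hearts 6 and 8 were lowest. The hearts thus formed separate clusters, so the relation was not tested by a correlation across them. The genes of the sum did not all share this order. Bmp10 was at 421 and 569 CPM in HVCN1 null heart 2 and WT heart 7, but at 0.038 and 0.15 CPM in HVCN1 null heart 3 and WT heart 5. In WT hearts 6 and 8 the sum was mostly Nppa (120 and 82.4 CPM) and Kcnj3 (59.7 and 84.8 CPM), with Myl7 at 0.62 and 0.17 CPM.

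Per count of Myl7, the atrial myosin light chain, Sln was far steadier. The ratio was 0.203, 0.176, 0.164 and 0.157 in HVCN1 null hearts, 0.205 in WT heart 5 and 0.204 in WT heart 7. In WT hearts 6 and 8 the ratio rested on 1 of 20 and 0 of 5 counts and carries little information. With 1 added to each count the log2 difference was 0.12 (two-sided exact permutation test, p = 0.857, 0.857 adjusted over 10 ratios, n = 4 and 4). Sln reached at most 7.41% of the Pln counts (WT heart 7) and 0.0935% in HVCN1 null heart 1. The ratio of Sln to Atp2a2 gave an exact p of 0.429 (0.694 adjusted), and its mean was lower in HVCN1 null hearts on the linear scale but higher on the log scale, where the nearly empty WT hearts weigh most.

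**Figure D3:**
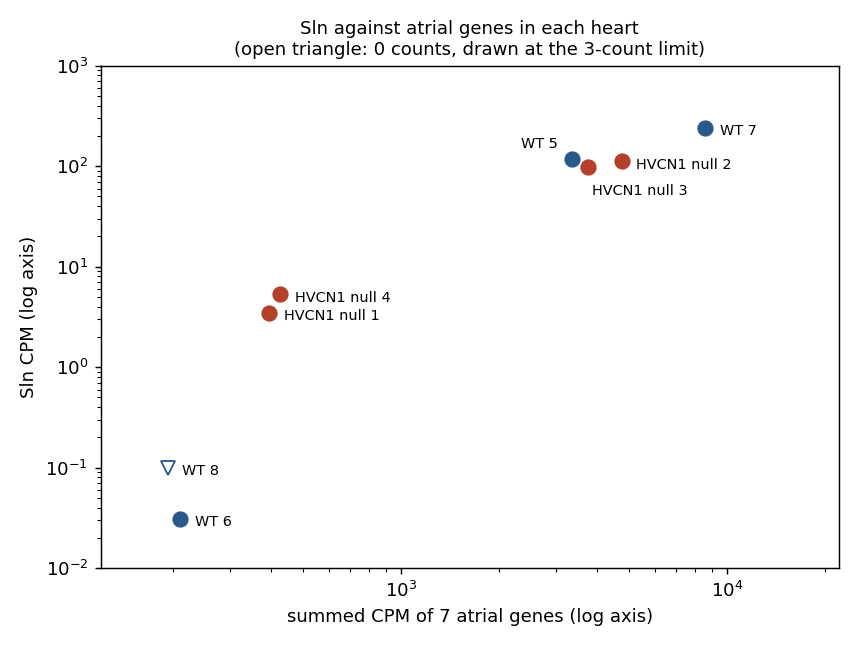
Sln CPM (vertical, log axis) against the summed CPM of 7 atrial genes (horizontal, log axis) in each heart, with HVCN1 null hearts in red and WT hearts in blue. Sln is at 99.3 CPM or above in the 4 hearts with 3352 atrial CPM or more and at 5.30 CPM or below in the 4 others, and the open triangle is WT heart 8, with 0 counts, drawn at its limit of 0.10 CPM.

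Ryr2 (ENSMUSG00000021313, chromosome 13, 11553102 to 12106945, minus strand), the cardiac release channel, overlapped between the groups through 1 heart. HVCN1 null hearts stood at 1517, 1589, 1231 and 1589 CPM, and WT hearts at 1084, 1813, 1749 and 1920 CPM. WT heart 5 was the lowest of all 8 hearts, and the other 3 WT hearts were the highest. The means were 1481 ± 170 and 1641 ± 378 (SD, n = 4 and 4), with a log2 fold change of -0.16 (SE 0.18, 95% interval -0.55 to 0.24, edgeR adjusted p = 0.866). With 1 heart left out the log2 fold change ran from -0.30 without WT heart 5 (edgeR unadjusted p = 0.0296, adjusted p = 0.371) to -0.079 without HVCN1 null heart 3 and -0.062 without WT heart 8 (adjusted p = 0.963 and 0.975). Without WT heart 5, 3 of the 10 genes (Atp2a2, Ryr2 and Hrc, all lower) had an unadjusted p under 0.05, against 11.5% of all genes tested, and still no gene of the 10 was a DEG.

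Casq2 (ENSMUSG00000027861, chromosome 3, 102086415 to 102146514, plus strand) and Trdn (ENSMUSG00000019787, chromosome 10, 33080554 to 33476709, plus strand) encode calsequestrin, the main calcium buffer of the store, and triadin, which links it to the release channel. Casq2 CPM was 720, 735, 729 and 787 in HVCN1 null hearts and 707, 850, 689 and 881 in WT hearts, so that the HVCN1 null values lay inside the WT range. Its log2 fold change was -0.08 (SE 0.11, edgeR adjusted p = 0.895). Trdn CPM was 210, 219, 202 and 246 in HVCN1 null hearts and 194, 238, 203 and 241 in WT hearts, with means of 219 ± 19.2 and 219 ± 24.0 (SD, n = 4 and 4). For Trdn the 95% interval of the log2 difference was -0.25 to 0.24.

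Hrc (ENSMUSG00000038239, chromosome 7, 45335290 to 45338974, plus strand), whose histidine-rich protein binds calcium inside the store and interacts with triadin and the pump, showed the largest difference of the 9 genes other than Sln. HVCN1 null hearts gave 637, 740, 755 and 811 CPM, against 833, 991, 805 and 1099 CPM in WT. Only HVCN1 null heart 4 and WT heart 7 crossed, by 811 against 805, and with the scaling factors of the tested genes alone even these did not (808 against 812). The means were 736 ± 72.5 and 932 ± 138 (SD, n = 4 and 4), 21.1% lower in HVCN1 null hearts (two-sided exact permutation test, p = 0.0571). The log2 fold change was -0.35 (SE 0.13, 95% interval -0.64 to -0.06), with an unadjusted p of 0.0236 and an adjusted p of 0.337 in edgeR's quasi-likelihood test, so Hrc failed the correction over all genes. Its adjusted p ran from 0.146 (DESeq2) to 0.647 (without WT heart 6) over the other settings, and its log2 fold change from -0.41 to -0.25. Without HVCN1 null heart 1, WT heart 6 or WT heart 8 the unadjusted p of Hrc was above 0.05.

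Jph2 (ENSMUSG00000017817, chromosome 2, 163336242 to 163397993, minus strand), the junctophilin that spans the gap between T-tubule and store, was at 539, 581, 650 and 606 CPM in HVCN1 null hearts and 548, 628, 502 and 692 CPM in WT hearts. The groups were interleaved, and the 95% interval of the log2 fold change was -0.28 to 0.27 (edgeR). Slc8a1 (ENSMUSG00000054640, chromosome 17, 81373105 to 81738377, minus strand), the sodium-calcium exchanger NCX1, was at 121, 161, 85.0 and 130 CPM in HVCN1 null hearts and 78.8, 129, 114 and 163 CPM in WT hearts. Its log2 fold change was slightly positive (0.03, SE 0.23, 95% interval -0.48 to 0.53, edgeR adjusted p = 0.992), and this turned negative without HVCN1 null heart 2 or WT heart 5 (-0.12 and -0.13). After Sln it varied most between hearts, with a coefficient of variation of 25.1% over all 8.

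Camk2d (ENSMUSG00000053819, chromosome 3, 126596302 to 126846326, plus strand), the main cardiac CaMKII gene, varied least of the 10, with a coefficient of variation of 6.62%. HVCN1 null hearts were at 149, 157, 134 and 142 CPM, WT hearts were at 129, 152, 150 and 151 CPM, and the 95% interval of its log2 fold change was -0.21 to 0.20 (edgeR).

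**Figure D4:**
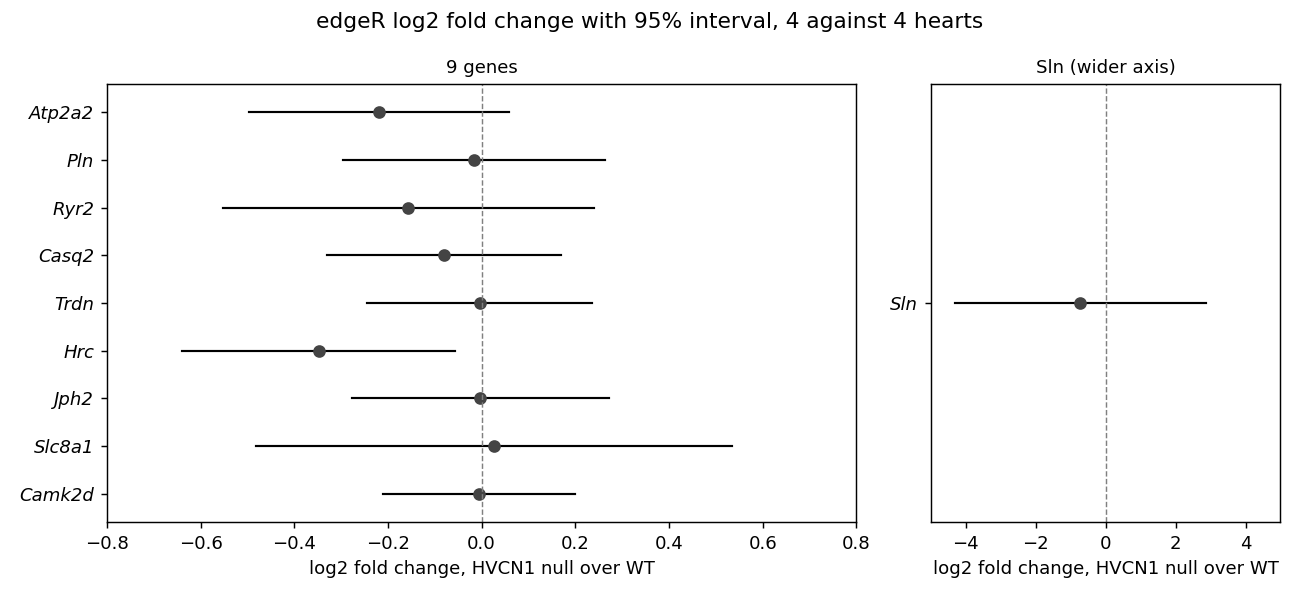
Log2 fold change, HVCN1 null over WT (horizontal axis), of each gene from edgeR's quasi-likelihood fit (points) with its 95% interval (lines), with Sln on a wider axis. The interval of Hrc (-0.64 to -0.06) lies to the left of 0, and the intervals of the other 9 genes cross 0.

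WT heart 5 and HVCN1 null heart 3 were the lowest hearts for Ryr2, Slc8a1 and Camk2d. In the same hearts long genes as a whole were low. Taking 1368 tested genes with more than 10000 bases of exon against 3910 genes with 1000 to 3000, the log2 difference between their median deviations was -0.33 in WT heart 5 and -0.29 in HVCN1 null heart 3. It was between -0.10 and 0.23 in the other 6 hearts, with group means of 0.01 and -0.01 (exact permutation test, two-sided, p = 0.886, n = 4 and 4). The exons of Ryr2, Slc8a1 and Camk2d cover 28790, 18807 and 22493 bases, the greatest lengths of the 10 genes. Relative to its mean over the 8 hearts, Ryr2 was at -0.50 and Slc8a1 at -0.60 on the log2 scale in WT heart 5. With the long-gene index as a covariate, Ryr2 had a log2 fold change of -0.15 (edgeR adjusted p = 0.676) and Atp2a2 of -0.22 (adjusted p = 0.469). Leaving out both hearts gave -0.23 for Ryr2 and -0.26 for Atp2a2 (adjusted p = 0.577 and 0.593).

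**Figure D5:**
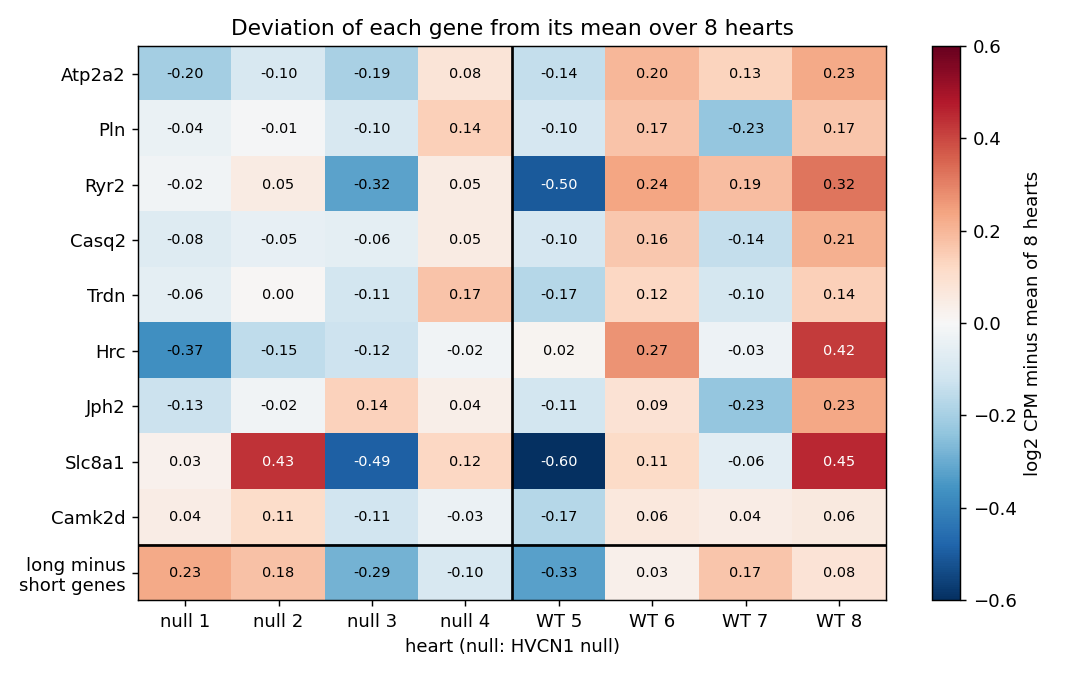
Log2 CPM of 9 genes in each heart minus the gene's mean over the 8 hearts (colour and printed value), with HVCN1 null hearts left of the line and WT hearts right of it. The bottom row is the median of the same deviation over long genes minus that over short genes, and it is lowest in WT heart 5 (-0.33) and HVCN1 null heart 3 (-0.29), where Ryr2 and Slc8a1 are also lowest.

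Within the release unit, the ratios of Casq2, Trdn, Jph2, Camk2d and Atp2a2 to Ryr2 all overlapped between the groups. Casq2 to Ryr2 was 0.462 to 0.592 in HVCN1 null hearts, against 0.394 to 0.653 in WT hearts. Trdn to Ryr2 was 0.138 to 0.164 and 0.116 to 0.179, Jph2 to Ryr2 0.356 to 0.528 and 0.287 to 0.506, and Camk2d to Ryr2 0.0893 to 0.109 and 0.0788 to 0.119. Atp2a2 gave 6.15 to 7.62 counts per Ryr2 count in HVCN1 null hearts, against 6.55 to 8.97 in WT hearts. The exact permutation p-values of these ratios ran from 0.40 to 0.771 (0.694 to 0.857 adjusted over 10 ratios). Without WT heart 5, Trdn to Ryr2 was higher in every HVCN1 null heart than in the WT hearts (log2 difference 0.26, exact p = 0.0286, not adjusted). The same held for Camk2d to Ryr2 (0.26, exact p = 0.0571, not adjusted). Ryr2, the shared denominator, was then itself lower in every HVCN1 null heart than in the WT hearts. The share of all genes with such a split in their ratio to Ryr2 was not computed. Hrc to Atp2a2 was 0.0683 to 0.0805 in HVCN1 null hearts, against 0.0683 to 0.0874 in WT hearts, and Slc8a1 to Atp2a2, extrusion set against uptake, was 0.00906 to 0.0160 and 0.00810 to 0.0130 (exact p = 0.229 and 0.286, 0.694 adjusted for each).

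Per kilobase of the longest coding transcript, the WT levels of the 10 genes ran from 6.57 to 2585 CPM per kb. Atp2a2 stood at 2585 ± 288 CPM per kb and Pln at 1644 ± 225 (SD, n = 4 each), followed by Hrc at 387 ± 57.4 and Casq2 at 306 ± 38.2, which differed by less than the sum of their SDs. Jph2 was at 141 ± 20.0, Ryr2 at 97.6 ± 22.5, Trdn at 48.5 ± 5.32, Camk2d at 26.3 ± 2.00 and Slc8a1 at 6.57 ± 1.90 CPM per kb. Sln had a mean of 68.1 ± 87.1 CPM per kb and has no fixed place in this order, since its SD covers Ryr2 and Trdn. In HVCN1 null hearts the order was the same except for Sln, which at 41.7 ± 44.4 was below Trdn at 48.6 ± 4.25. On this scale Pln amounted to 0.733 of Atp2a2 in HVCN1 null hearts and 0.638 in WT hearts. The lengths decide some of these levels, and with all exons of the gene in place of 1 transcript Camk2d fell from 26.3 to 6.47 CPM per kb over all hearts.

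Around the 10 genes, a list of 55 further genes of calcium handling was examined, of which 53 were tested. None was a DEG (edgeR quasi-likelihood), against 1.14% of all genes. At an unadjusted p under 0.05 there were 3, all lower in HVCN1 null hearts, Ryr1 and Ppp1r1a among them, against 11.0% of all genes. Negative log2 fold changes outnumbered positive ones, 36 to 17, and the median was -0.05, against 52.7% negative and a median of -0.01 for all tested genes. The split of the list was taken from this fit only. The share of negative signs over all genes moved with the scaling, to 43.8% with unscaled libraries and 39.6% when scaled to cardiomyocyte markers. DESeq2, edgeR's exact test and its likelihood ratio test each called Ryr1 and no other gene of the list. Over all 14796 tested genes they called 466, 367 and 376, in that order.

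Ryr1, the release channel of skeletal muscle, was the only gene of the 53 tested whose groups did not overlap, against 7.14% of all tested genes. It was at 0.722, 0.565, 0.454 and 0.227 CPM in HVCN1 null hearts and 0.862, 2.70, 1.13 and 2.44 CPM in WT hearts, from 65 and 237 counts in all. Its log2 fold change was -1.85 (SE 0.45, edgeR quasi-likelihood adjusted p = 0.105, and 0.00511 by DESeq2). Of 9 skeletal muscle markers 5 were tested, 4 of them with a negative log2 fold change and 1, Tnnt3, with an unadjusted p under 0.05 (-1.16, edgeR adjusted p = 0.409). Those too low to be tested had few counts, in HVCN1 null and WT hearts in that order. Myh1 had 13 and 2, Myh2 11 and 13, Myh4 2 and 1, and Pvalb 39 and 32. The 9 markers summed to 2.13, 5.81, 4.39 and 4.03 CPM in HVCN1 null hearts 1 to 4. In WT hearts 5 to 8 they summed to 6.97, 3.66, 9.99 and 3.51 CPM. WT hearts 6 and 8, the highest in Ryr1, thus had the lowest sums among WT hearts. Of the 9 markers, 5 were under 1 CPM in every heart, and the part of skeletal muscle in the Ryr1 values was not tested.

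Among pump isoforms, pump regulators and counter-ion channels, 5 of 7 tested genes had a negative log2 fold change. The most abundant were S100a1, a calcium sensor that binds the pump and the release channel (556 ± 78.8 and 518 ± 119 CPM), and Tmem38a, the counter-ion channel TRIC-A (335 ± 34.6 and 370 ± 55.0 CPM). Of 17 tested release, junction and luminal genes 11 were negative, and the most abundant were Srl, encoding sarcalumenin (818 ± 54.5 and 904 ± 121 CPM), and Calr, encoding the chaperone calreticulin (255 ± 24.7 and 289 ± 22.6 CPM). Extrusion and store-operated entry genes were split between 4 negative and 5 positive, led by the plasma membrane pumps Atp2b1 (52.5 ± 8.39 and 51.3 ± 4.73 CPM) and Atp2b4 (39.8 ± 7.76 and 37.7 ± 4.85 CPM). Among kinases, phosphatases and calcium sensors 16 of 20 were negative. Hspb6, a small heat shock protein that acts on the phosphatase of phospholamban, was at 913 ± 45.6 and 957 ± 192 CPM, and Prkaca, the catalytic subunit of protein kinase A, at 252 ± 13.6 and 242 ± 22.7 CPM (each SD, n = 4 HVCN1 null and 4 WT hearts, in that order). The lowest edgeR adjusted p of these 8 genes was 0.60 (Calr).

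Ppp1r1a, the gene of phosphatase inhibitor 1, was low, at 0.511 to 1.51 CPM in HVCN1 null and 1.34 to 2.39 CPM in WT hearts (log2 fold change -0.99, edgeR adjusted p = 0.309).

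The 5 protein-coding genes whose log2 CPM followed Sln most closely over the 8 hearts were Myl7 (Pearson r = 0.998), Myl4 (0.997), Mybphl (0.985), Tmem163 (0.984) and Lmntd1 (0.983). Myl7 and Myl4 are on the atrial list, and the hearts form separate clusters in these genes, so the r values describe likeness only. Those closest to Atp2a2 were Msantd4 (0.973), Gpt2 (0.966), G3bp1 (0.957), Ppm1k (0.949) and Rbl2 (0.941), each with a negative log2 fold change, from -0.31 to -0.12, and none a DEG (edgeR). They were chosen for likeness to Atp2a2, itself at -0.22 in the same hearts, so their shared sign is not a separate result. All 8 values of each gene come from the same libraries and share their depth and scaling.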

How the data were processed

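RNA from the hearts of 4 HVCN1 null and 4 WT mice was sequenced, each heart as its own library. After poly-A selection, the authors aligned paired reads with STAR and assigned them to genes with featureCounts. What they deposited are raw counts for each gene in each heart. The submitters' processing notes name GRCm38 (mm10), while the paper's text names a human build, and the identifiers are those of mouse Ensembl genes. Positions came from GENCODE M21 on GRCm38, to which 38872 of 39056 identifiers matched. Strand counting is not given in the sources used here.

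Low genes were removed by filterByExpr at its default settings, library sizes were scaled by TMM, and groups were compared by edgeR's quasi-likelihood test (edgeR 4.0.16, R 4.3.3) without covariates. CPM and log2 CPM (prior count 2) used TMM factors over all listed genes. Ratios of counts were tested on the log2 scale by two-sided exact permutation over 70 assignments. The ratios with Sln in them had 1 added to each count, because WT heart 8 had 0 counts of Sln. The edgeR quasi-likelihood test was checked on simulated counts. The 10 genes, the gene lists, the ratios and the motifs were chosen with earlier results of these data known. Genes named besides the 10 are Hvcn1, listed genes whose groups did not overlap or that lead their role in CPM, called genes near Hvcn1, marker genes and the 5 genes most like Sln or Atp2a2. Ppp1r1a was named after its values were seen. Cux2, near Hvcn1 but not a DEG, fell outside these rules and was named for its unadjusted p under 0.05 in edgeR. 1 gene of the calcium handling list is counted in the totals but not reported here. Alternatives were other scalings, filters and tests (limma 3.58.1, DESeq2 1.42.0), an atrial score as covariate, an adjusted p under 0.01, ratios on the linear scale or with 1 added, and each heart left out. The long-gene index as covariate, the joint removal of WT heart 5 and HVCN1 null heart 3, and the background of ratios to Atp2a2 were added after seeing the data. The 95% intervals come from the edgeR fit and include the spread between hearts, while the limit given for 0 counts covers counting error only.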

Additional observations from a re-analysis of the deposited data

Results flagged for a closer look

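Among 40 groups of 4 hearts (CPM of each gene and each ratio in each genotype), 4 held a heart that stood apart from the other 3 by Dixon's test, where chance gives about 1 in 20. WT heart 5 was low for Camk2d, at 129 CPM against 150 to 152 CPM in the other WT hearts. The same heart was high for the ratio of Camk2d to Ryr2, at 0.119 against 0.0788 to 0.0856, and for the ratio of Atp2a2 to Ryr2, at 8.97 against 6.55 to 6.79. HVCN1 null heart 3 was high for the ratio of Jph2 to Ryr2, at 0.528 against 0.356 to 0.381. These are the 2 hearts in which long genes as a whole were lowest, and the part of long genes in these 4 values was not tested.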

How the results depend on the processing

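No paired analysis was possible because the labels and methods give no pairing of HVCN1 null with WT hearts. None of the 10 genes was a DEG under any of the 21 alternatives. The number of DEGs, 169, was 466 by DESeq2, 367 by edgeR's exact test, 376 by its likelihood ratio test, 106 when scaled to cardiomyocyte markers, 56 at an adjusted p under 0.01, 56 without HVCN1 null heart 3 and WT heart 5, and 71 (without WT heart 6) to 152 with 1 heart left out. Scaled to cardiomyocyte markers, the DEGs were 85 higher and 21 lower, against 110 and 59. DESeq2 and edgeR's exact and likelihood ratio tests each called 1 gene of the calcium handling list (Ryr1), against 0.

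Atp2a2, Ryr2, Casq2 and Hrc were lower in HVCN1 null hearts under all 20 alternative fits. The log2 fold change of Sln turned to 2.74 under voom and 0.18 with the atrial covariate, and ran from -1.33 to 0.46 with 1 heart left out. The other reversals were of differences near 0. RLE scaling, DESeq2, no filter, unscaled libraries, cardiomyocyte scaling and the atrial covariate gave, in that order, 0.0082, 0.0084, 0.0027, 0.039, 0.060 and 0.039 for Trdn, 0.0092, 0.0093, 0.0035, 0.045, 0.063 and 0.045 for Jph2, and 0.0063, 0.0066, 0.0018, 0.034, 0.056 and 0.0066 for Camk2d. Unscaled libraries, cardiomyocyte scaling and the atrial covariate gave 0.030, 0.054 and 0.042 for Pln, and voom gave 0.0024 for Jph2. With 1 heart left out, log2 fold changes ran from -0.081 to 0.048 for Pln, -0.065 to 0.054 for Trdn, -0.067 to 0.089 for Jph2 (-0.083 without HVCN1 null heart 3 and WT heart 5), -0.13 to 0.21 for Slc8a1 and -0.053 to 0.029 for Camk2d. The cause of these turns was not tested.

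With 1 heart left out, the log2 ratio difference ran from 0.12 to 0.25 for Pln to Atp2a2, 0.050 to 0.26 for Trdn to Ryr2, -0.045 to 0.20 for Casq2 to Ryr2, -0.14 to 0.018 for Atp2a2 to Ryr2 and -0.13 to 0.24 for Sln to Myl7. Sln to Atp2a2 differed by -0.00251 on the linear scale, against 3.15 on the log2 scale. With 4 hearts a group, the 95% intervals of Camk2d (-0.21 to 0.20) and Slc8a1 (-0.48 to 0.53) were the narrowest and the widest besides Sln. These intervals give the differences that the data allow and are not limits of detection. Hrc, whose interval (-0.64 to -0.06) leaves out 0, was not a DEG either.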
